A study of Mus musculus with 6 samples.

Results

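The data cover 10 genes of endocytic C-type lectins: the CD209 family (Cd209a to Cd209g), the macrophage galactose-type lectins (Clec10a and Mgl2) and the mannose receptor (Mrc1). They were chosen by gene symbol from the 24346 genes in each table, and all 10 were found. Transcripts were measured by RNA sequencing in mouse splenic cells that had been sorted for CD11c, a surface integrin of dendritic cells, with an autoMACS magnetic instrument. In 3 libraries the CD11c+ cells are labelled as treated with IL-33, an alarmin cytokine related to IL-1, and in the other 3 as treated with PBS, a buffered saline. The series title concerns Sema4a expression by dendritic cells, and the lectin genes are read here from the same libraries. The labels name no strain, age, genotype, dose or time, and do not say whether treatment took place in the mouse or in culture. Nothing in them ties the 3 libraries of a group to separate animals or cultures, so the p-values reflect only how far these libraries differ, which can be technical variation.

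C-type lectin receptors bind sugars in a calcium-dependent way and carry the bound particle or glycoprotein into the cell for degradation or antigen presentation. The CD209 proteins are the mouse relatives of human DC-SIGN and, like the mannose receptor (CD206), bind mannose-rich glycans, whereas the galactose-type lectins MGL1 (Clec10a) and MGL2 (Mgl2, CD301b) bind galactose and N-acetylgalactosamine. In macrophages Mrc1, Clec10a and Mgl2 are commonly used markers of alternative activation by IL-4 and IL-13, which act through the transcription factor STAT6. In the spleen Cd209a is known from dendritic cells, Cd209b (SIGN-R1) from marginal zone macrophages, and Mrc1 from red pulp macrophages.

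The genes lie at 3 places in mm10. The 7 CD209 genes form a cluster on chromosome 8, from Cd209a (3743397 to 3748984, minus strand) through Cd209e (3847965 to 3854309, minus strand), Cd209d, Cd209b, Cd209c and Cd209f to Cd209g (4134098 to 4137707, plus strand). Mgl2 (70130329 to 70137550) and Clec10a (70156197 to 70170834) are neighbours on the plus strand of chromosome 11, and Mrc1 (14229392 to 14332057) is on the plus strand of chromosome 2, where its gene body holds the microRNA gene Mir511. All are protein-coding in the GENCODE M21 annotation.

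How alike 2 genes are decides whether their reads can be told apart. The coding sequences of Mgl2 (1143 bases) and Clec10a (924 bases) were 90.4% identical over 910 aligned bases. The longest run without a difference is coding bases 550 to 732 of Mgl2, and it is shown because any read that falls wholly inside it fits both genes.
Mgl2 and Clec10a: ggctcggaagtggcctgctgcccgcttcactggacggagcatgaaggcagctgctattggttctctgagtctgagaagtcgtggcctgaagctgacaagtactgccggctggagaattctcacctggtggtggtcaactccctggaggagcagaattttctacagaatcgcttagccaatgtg
Of all 50-base runs in the Mgl2 transcripts 14.5% occurred also in another gene, and 9.24% of those of Clec10a did, in both cases mostly in each other. The division of reads between these genes by the authors' counting is therefore uncertain in part. For Cd209a, Cd209b, Cd209d, Cd209e and Mrc1 no 50-base run was shared with the transcripts of another gene. Cd209a and Cd209e were 71.4% identical over 609 aligned coding bases, with no shared run above 21 bases. Cd209f and Cd209g shared 39.7% and 38.7% of their runs, and Cd209c shared 16.5% of its runs with 19 other genes.

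RefSeq promoter sequences of GRCm38.p6, from 250 bases before to 50 bases after the gene start, were matched for 9 of the 10 genes (Clec10a was not matched). They were searched on both strands for the STAT motif, TTC and GAA around a spacer of any bases. A 4-base spacer, the form STAT6 is known to prefer, and a 3-base spacer were searched. The 4-base form was found in 1 of the 9 promoters, that of Cd209e, and the 3-base form in 0. Among 27025 promoters of the same length, 6.99% held the 4-base form and 8.47% the 3-base form. The same promoters were also searched for a PU.1 motif (GAGGAAGT), a kappaB motif and a TATA box (TATAAA). No PU.1 or kappaB match was found in the 9, beside 3.28% and 8.18% of the 27025. TATA boxes were found in the promoters of Cd209a, Cd209f and Cd209g, beside 14.2% of the 27025. The match in Cd209e, TTCCTAAGAA, began 79 bases before the gene start. The promoters of Cd209a, Cd209d and Cd209b were aligned with that of Cd209e. The stretches were picked for display after the changes were seen, and any part of the sequence in those changes was not tested. Capitals mark the match in Cd209e and the bases aligned with it in the others.
Cd209e, chr8:3854331-3854390, minus strand: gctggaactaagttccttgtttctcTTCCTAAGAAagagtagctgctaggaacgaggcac
Cd209a, chr8:3748953-3749012, minus strand: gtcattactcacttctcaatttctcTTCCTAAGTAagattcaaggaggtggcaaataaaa
Cd209d, chr8:3878529-3878588, minus strand: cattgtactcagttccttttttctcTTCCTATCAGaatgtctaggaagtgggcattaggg
Cd209b, chr8:3926845-3926904, minus strand: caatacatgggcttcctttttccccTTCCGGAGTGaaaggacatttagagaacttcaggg
The aligned bases lie at different distances from the RefSeq gene start: they begin 79 bases before it in Cd209e, 64 in Cd209d, 38 in Cd209b and 3 in Cd209a, where they run past the start. RefSeq starts can differ from the GENCODE positions given above, and the distances depend on that choice. The promoters taken for Cd209c (3946814 to 3947113) and Cd209g (4134486 to 4134785) lie inside their GENCODE genes. Counted from 1 at the 5′ end of the match, Cd209a differed by A9T alone, Cd209d by A7T, G8C and A10G, and Cd209b by T5G, A6G, A9T and A10G. The 300-base promoters of Cd209a, Cd209d and Cd209b were 71.0%, 61.4% and 62.2% identical to that of Cd209e over aligned bases. A match of letters is a description of the sequence, and binding was not measured. The promoter of Mgl2, the gene with the largest change among the 10, held neither form.
Mgl2, chr11:70130107-70130406, plus strand: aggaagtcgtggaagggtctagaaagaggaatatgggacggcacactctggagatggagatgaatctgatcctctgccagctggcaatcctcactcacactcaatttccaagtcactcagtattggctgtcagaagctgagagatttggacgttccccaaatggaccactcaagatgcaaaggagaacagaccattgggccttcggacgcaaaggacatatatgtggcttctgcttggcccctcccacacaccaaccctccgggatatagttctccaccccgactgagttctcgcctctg

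Values are FPKM (fragment counts divided by transcript length and library size). Absolute depth is unknown, and from the steps between FPKM values of at most 0.3 the relative depths were 0.946 to 1.22 times that of PBS replicate 1, without separating the groups. FPKM totals were 778391 to 841884 in IL-33 libraries and 614522 to 641412 in PBS libraries. Correlations were 0.969 to 0.982 within a group and 0.931 to 0.954 between groups (Pearson, across tested genes, which are not independent). General dendritic cell markers were present at a summed level of 20420 to 21900 FPKM under PBS and 30320 to 32870 FPKM under IL-33, with none of the 8 under 1 FPKM. That sum is mostly H2-Aa, H2-Ab1 and Cd74, which were higher, as was Itgax (CD11c), while Flt3, Zbtb46 and Ciita were lower and Dpp4 did not pass. Changes are differences of log2(FPKM + 1), IL-33 less PBS, a scale that understates changes of low genes, and SE is the standard error.

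Mgl2, Cd209e and Clec10a rose with IL-33, while Cd209a, Cd209d and Mrc1, the most abundant of the genes with PBS, did not pass the test. In these bulk samples a change in the number of cells of a type and a change in RNA per cell cannot be told apart. Of the 10 genes, 8 reached 1 FPKM in at least 3 libraries and were tested. With limma at an adjusted p of 0.05, 3 of these were higher and 0 lower, and the counts at an unadjusted p of 0.05 were also 3 and 0. Among all 11518 tested genes 53.6% were called, 28.0% as higher and 25.5% as lower (3230 and 2939 genes, but 1280 and 5840 with libraries rescaled to equal totals), so that 3 of 8 (37.5%) higher is near the background. The sizes were not alike. Only 3.12% of tested genes were called and at least 2-fold higher, and all 3 of these lectin genes were among them as deposited. Clec10a only just reached that size (log2 change 1.02). It stayed under 2-fold with equal totals (0.69), quantile normalization (0.91) and cyclic loess (0.92), and without some single libraries. The median change of the 8 was 0.31 beside 0.01 for all tested genes. The IL-33 and PBS libraries did not overlap for the same 3 genes, compared with 63.6% of tested genes.

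**Figure D1:**
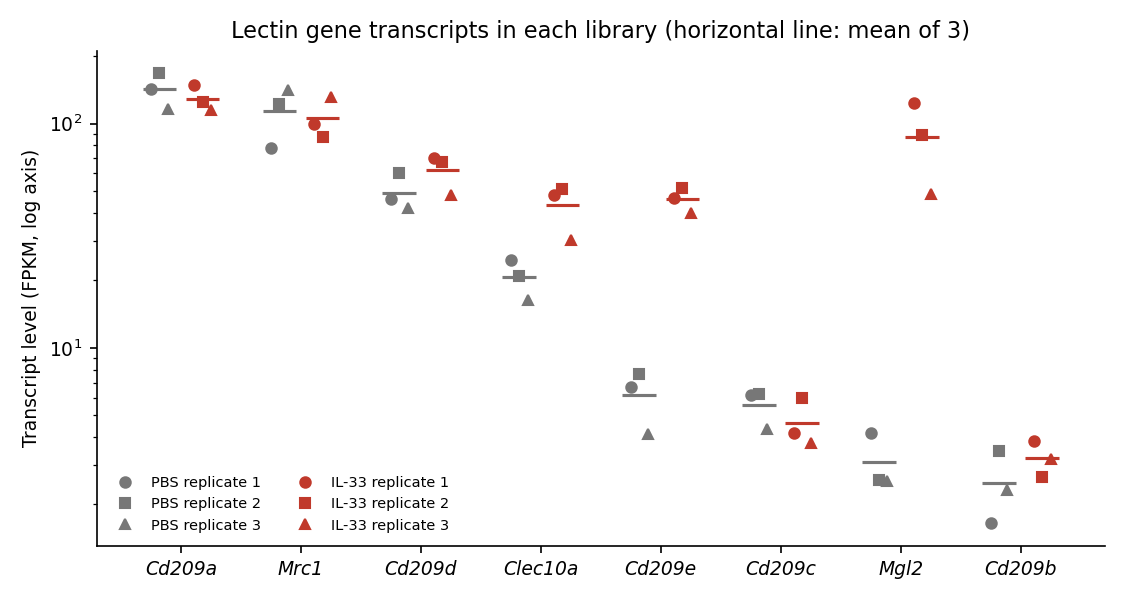
Transcript level in FPKM on a log axis for the 8 tested lectin genes; each point is a library (grey PBS, red IL-33, symbol by replicate) and each horizontal line the mean of 3. Mgl2, Cd209e and Clec10a have IL-33 points entirely above their PBS points, and the points of the other 5 genes overlap.

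**Figure D2:**
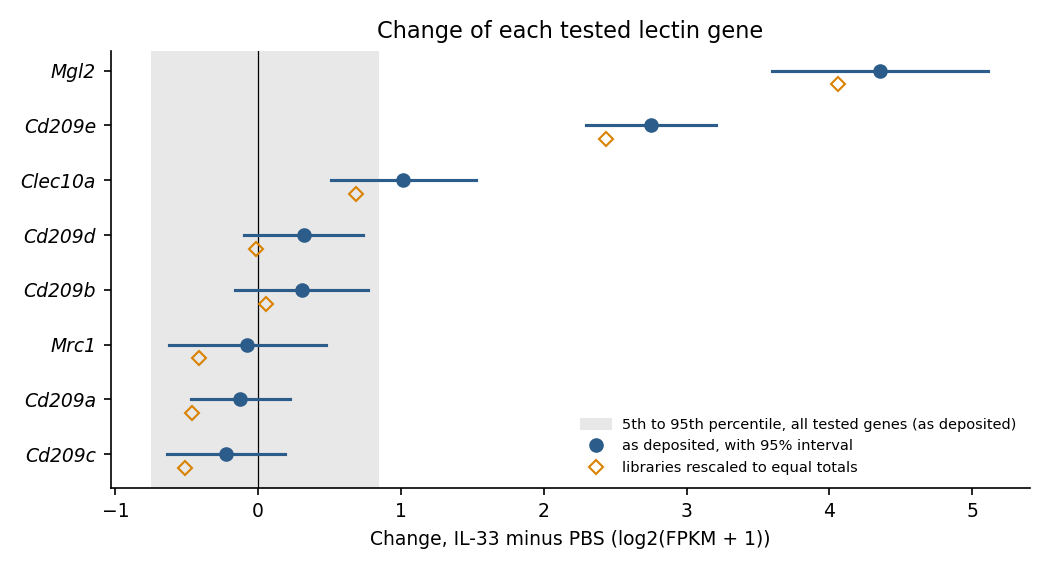
Change of each tested lectin gene, IL-33 minus PBS in log2(FPKM + 1), with its 95% interval (blue) and the same change with libraries rescaled to equal totals (orange diamonds). The grey band runs from the 5th to the 95th percentile of all tested genes, -0.74 to 0.84, and the as-deposited changes of Mgl2, Cd209e and Clec10a lie to its right.

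Mgl2 encodes MGL2 (CD301b), a galactose-type lectin of dendritic cells and macrophages. It stood at 4.16, 2.56 and 2.55 FPKM in PBS libraries 1, 2 and 3 and at 124, 89.3 and 48.4 FPKM in IL-33 libraries 1, 2 and 3. Every IL-33 library was above every PBS library, and within the IL-33 group the highest was 2.57 times the lowest. The means were 3.09 ± 0.93 FPKM under PBS and 87.2 ± 37.9 FPKM under IL-33 (SD, n = 3 per group), a 28.2-fold difference. The log2 change was 4.35 (SE 0.32, limma adjusted p = 0.00021, exact permutation p = 0.1, the smallest that 3 against 3 libraries allow). It lay above the change of 99.9% of tested genes.

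Clec10a encodes MGL1 (CD301a), the paralogue of MGL2. Its level was 24.7, 20.9 and 16.3 FPKM in PBS libraries 1, 2 and 3 and 48.2, 51.2 and 30.4 FPKM in IL-33 libraries 1, 2 and 3. The groups did not overlap, but IL-33 replicate 3 was closer to PBS replicate 1 than to the other IL-33 libraries. The means were 20.7 ± 4.22 and 43.3 ± 11.2 FPKM (SD, n = 3 per group), a 2.09-fold difference with a log2 change of 1.02 (SE 0.22, limma adjusted p = 0.00694, exact permutation p = 0.1). Clec10a was thus the more abundant galactose-type lectin transcript in each PBS library and Mgl2 in each IL-33 library. IL-33 replicate 3 had the least of both transcripts in its group, as PBS replicate 3 had in its own.

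Cd209e (SIGN-R4) was the CD209 gene that rose. It was listed at 6.67, 7.65 and 4.12 FPKM in PBS libraries 1, 2 and 3 and at 46.8, 51.9 and 39.9 FPKM in IL-33 libraries 1, 2 and 3. The lowest IL-33 library was far above the highest PBS library, and the IL-33 libraries differed by no more than 1.3-fold. The 7.51-fold difference of means corresponded to a log2 change of 2.75 with a 95% interval of 2.29 to 3.21 (limma adjusted p = 0.0002). Of the 3 lectin genes that rose it had the smallest spread between IL-33 libraries.

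Cd209a, the CD209 gene best known from dendritic cells, was the most abundant of the family in every library. Its level was 143, 168 and 116 FPKM in PBS libraries 1, 2 and 3 and 148, 125 and 116 FPKM in IL-33 libraries 1, 2 and 3. The groups overlapped, and the log2 change was -0.13 with a 95% interval of -0.47 to 0.22 (limma adjusted p = 0.495). It passed as lower with libraries rescaled to equal totals (-0.46, adjusted p = 0.0187), with quantile normalization (-0.46, adjusted p = 0.0495) and with cyclic loess (-0.48, adjusted p = 0.0378). Across alternatives its adjusted p ran from 0.0187 to 0.999. Equal totals moved the median change of all genes to -0.29, and relative to the median of all genes Cd209a was at -0.175 there, at -0.44 with quantile normalization and at -0.48 with cyclic loess. The sign was negative as deposited and in all 16 alternatives, and the call depended on the scaling.

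Cd209d (SIGN-R3), next in the family by level, was at 46.1, 59.99 and 41.8 FPKM in the PBS libraries and 70.1, 67.6 and 48.0 FPKM in the IL-33 libraries, in replicate order. The groups overlapped because IL-33 replicate 3 lay below PBS replicate 2. The log2 change was 0.32 (95% interval -0.10 to 0.73, limma adjusted p = 0.165). It passed as higher without IL-33 replicate 3 (0.49, adjusted p = 0.0364; 0.0364 to 0.942 across alternatives), and with equal totals its sign turned (-0.02).

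Cd209b and Cd209c were low. Cd209b encodes SIGN-R1, a receptor for bacterial polysaccharides on marginal zone macrophages, and stood at 1.65, 3.47 and 2.32 FPKM in the PBS libraries and 3.84, 2.66 and 3.18 FPKM in the IL-33 libraries. Its log2 change was 0.30 (95% interval -0.16 to 0.77, limma adjusted p = 0.229), and it passed as higher without PBS replicate 2 (0.50, adjusted p = 0.0488; 0.0488 to 0.811 across alternatives). Cd209c was at 6.14, 6.20 and 4.34 FPKM under PBS and 4.17, 5.98 and 3.76 FPKM under IL-33, and the groups overlapped. The log2 change of Cd209c was -0.23 (95% interval -0.64 to 0.19, limma adjusted p = 0.309). With equal totals it passed as lower (-0.51, adjusted p = 0.0453; 0.0453 to 0.696 across alternatives), or -0.22 relative to the median of all genes.

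Cd209f and Cd209g did not reach the expression filter. Cd209f was listed at 0.302, 0.0694 and 0.249 FPKM in the PBS libraries and at 0 in all 3 IL-33 libraries. Fitted without the filter, its log2 change was -0.27 (SE 0.07, limma adjusted p = 0.0333), a value set by levels near the limit of detection, and no fold is given. Cd209g was listed at 0 in all 6 libraries. Because these genes share long identical stretches, the levels cannot be assigned to 1 of them with certainty.

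Mrc1, the mannose receptor, did not pass. It stood at 77.8, 122 and 141 FPKM in PBS libraries 1, 2 and 3 and at 99.9, 87.0 and 132 FPKM in IL-33 libraries 1, 2 and 3. The groups overlapped fully, with the lowest and the highest library both in the PBS group. The log2 change was -0.08 with a 95% interval of -0.63 to 0.47 (SE 0.235, limma adjusted p = 0.803), and it turned to 0.05 without IL-33 replicate 2 and to 0.10 without PBS replicate 3. The interval leaves room for a fall or a rise within its bounds.

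Mrc1 differed between libraries of 1 group together with macrophage genes. The tested genes whose log2 level was most like that of Mrc1 over the 6 libraries were Slpi, a protease inhibitor gene (Pearson r = 0.995, Spearman rho = 1.0), Cd163, a haemoglobin scavenger receptor gene (r = 0.979, rho = 0.886), and Mertk, a receptor gene for uptake of dying cells (r = 0.977, rho = 0.943). Without the 2 libraries farthest from the median of Mrc1, r was 0.996 for Slpi, 0.998 for Cd163 and 0.973 for Mertk. These are descriptions over 6 libraries picked as the best of all tested genes. Cd163 was at 26.4, 42.8 and 47.5 FPKM in the PBS libraries and 33.1, 26.1 and 48.7 FPKM in the IL-33 libraries, the same order within each group as Mrc1. Across the 11 listed red pulp macrophage genes r with Mrc1 ran from 0.468 (C1qb) to 0.979 (Cd163), and across the 5 listed marginal zone macrophage genes from 0.182 (Nr1h3) to 0.716 (Axl), so the ranges of the lists overlap. The summed level of the red pulp genes was 2656, 3917 and 4563 FPKM in PBS libraries 1, 2 and 3 and 4939, 3810 and 5214 FPKM in IL-33 libraries 1, 2 and 3, with 2 of 11 called higher and 0 lower. Among all tested genes 28.0% were called higher and 25.5% lower. The part of the red pulp genes in the level of Mrc1 was not tested.

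**Figure D3:**
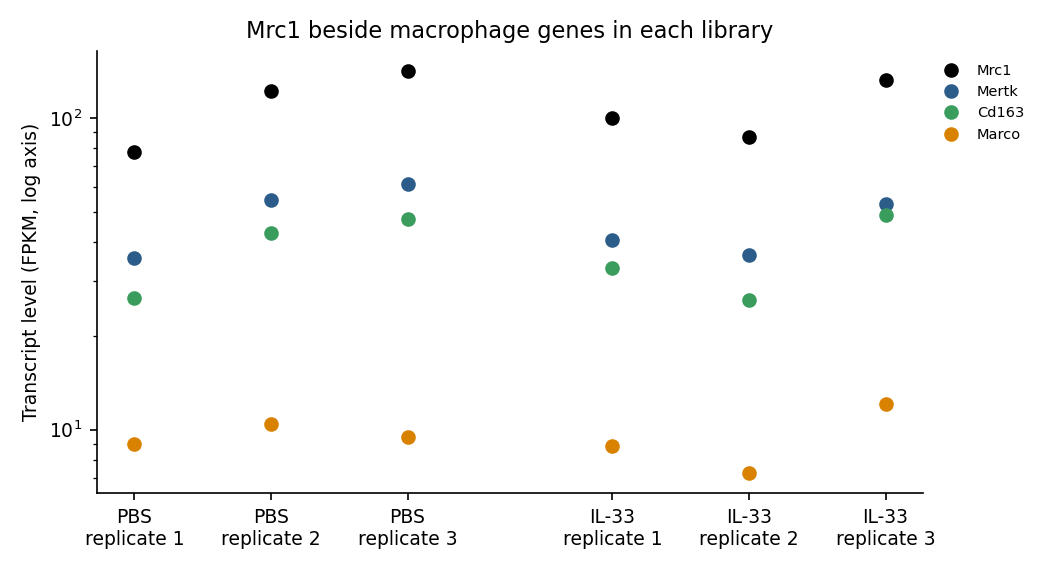
Transcript level in FPKM on a log axis of Mrc1, of the listed red pulp macrophage genes Mertk and Cd163, and of the listed marginal zone macrophage gene Marco; each point is 1 library. All 4 genes are lowest in PBS replicate 1 and in IL-33 replicate 2 of their groups, and Marco lies between 7.25 and 12.1 FPKM.

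A plain ratio of 2 genes in the same library does not change when all values of that library are multiplied by 1 factor, but quantile and cyclic loess scaling and the added 1 of the log2 scale can move it. For 6 pairs the log2 ratio was compared between groups with an exact two-sided permutation test, whose smallest p is 0.1, or 0.12 after Benjamini-Hochberg adjustment over the 6 pairs when 5 reach it. No pair could therefore pass 0.05. Plain Mgl2 to Clec10a ratios were 0.168, 0.123 and 0.156 in the PBS libraries and 2.57, 1.74 and 1.59 in the IL-33 libraries. The log2 ratio changed by 3.34 (SE 0.24, exact p = 0.1, adjusted p = 0.12), larger than the spread in either group. Cd209a to Cd209e ratios were 21.5, 22.0 and 28.1 with PBS and 3.17, 2.41 and 2.90 with IL-33, a log2 difference of -2.88 (SE 0.14, exact p = 0.1, adjusted p = 0.12).

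The groups were also apart for Cd209a/Cd209d (log2 difference -0.45, SE 0.12), Cd209a/Cd209b (-0.43, SE 0.22) and Mgl2/Cd209e (1.60, SE 0.40), each with an exact p of 0.1. The Cd209a/Cd209b difference was -0.24 without PBS replicate 1, -0.84 with quantile normalization and -0.92 with cyclic loess. The ratio of Cd209a to Cd209d was 3.11, 2.80 and 2.77 in the PBS libraries and 2.11, 1.85 and 2.41 in the IL-33 libraries. Cd209a was thus lower relative to Cd209d in each IL-33 library than in each PBS library, although neither gene passed by itself. Groups without overlap were common, with 63.6% of single tested genes, and no such share was computed for pairs. For Clec10a/Mrc1 the groups overlapped (1.09, SE 0.58, exact p = 0.2, adjusted p = 0.2).

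**Figure D4:**
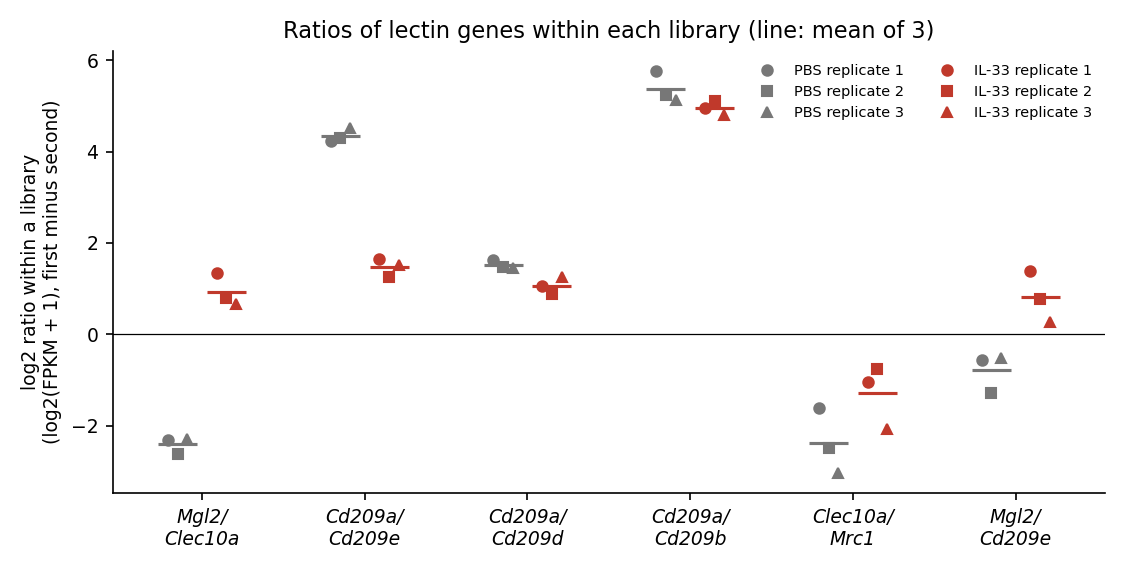
Difference of log2(FPKM + 1) between the 2 genes of a pair within each library (first minus second; grey PBS, red IL-33, line for the mean of 3). The Mgl2/Clec10a ratio is below 0 in each PBS library and above 0 in each IL-33 library, and only the Clec10a/Mrc1 ratio has overlapping groups.

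The make-up of the summed lectin transcript differed accordingly. The 10 genes together gave 311, 391 and 329 FPKM in the PBS libraries and 545, 481 and 421 FPKM in the IL-33 libraries. Mgl2 and Clec10a made up 9.29%, 6.01% and 5.74% of that sum with PBS and 31.6%, 29.2% and 18.7% with IL-33. The mean share of Cd209a went from 41.4% ± 5.62 to 26.9% ± 0.78 (SD, n = 3 per group), although its level had not passed as lower. The CD209 family as a whole held 51.3% to 65.7% with PBS and 49.98% to 52.7% with IL-33, which overlap, and Cd209e made up 1.78% ± 0.47 of the 10-gene sum with PBS and 9.62% ± 1.11 with IL-33. Of the CD209 family alone it made up 2.94% ± 0.44 and 18.9% ± 1.69 (SD, n = 3 per group). In order of level Cd209a and Mrc1 were the first and second in all 3 PBS libraries, in either order. With IL-33 Mgl2 was second in replicates 1 and 2 and at rank 3 in replicate 3.

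**Figure D5:**
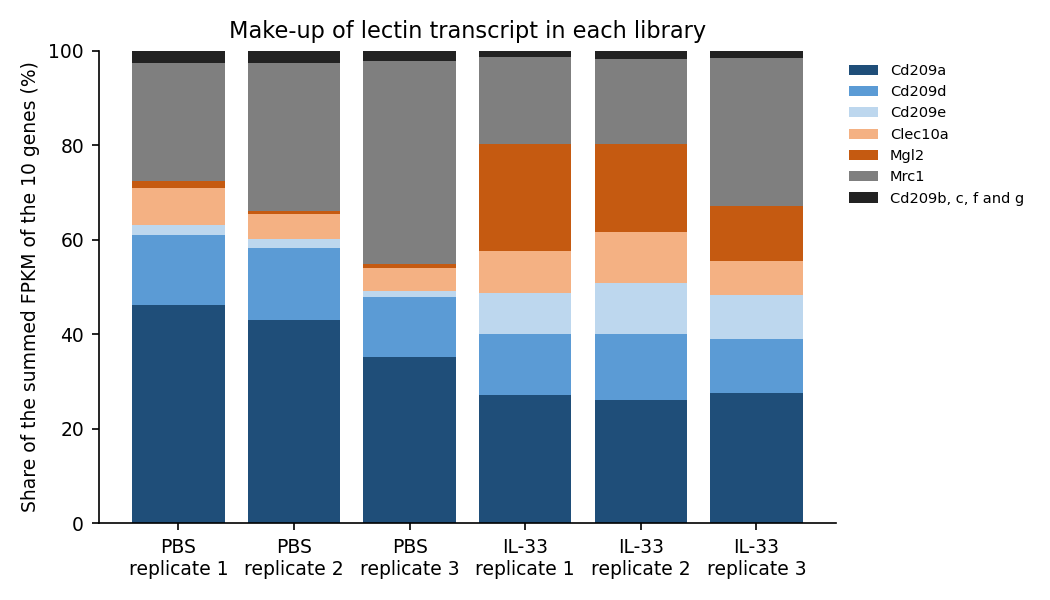
Share of each lectin gene in the summed FPKM of the 10 genes, in percent, for each library. Mgl2 takes 0.656% to 1.34% with PBS and 11.5% to 22.8% with IL-33, and the share of Cd209a is smaller in each IL-33 library than in each PBS library.

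Few genes beside the lectins were tested. Of 22 listed genes whose start lies within 100 kb of a lectin gene start, 9 were tested, and 3 were higher and 2 lower with IL-33 (median change 0.01). These counts are near the shares of all tested genes, 28.0% higher and 25.5% lower, and with equal totals they were 1 and 4. Around the CD209 cluster 0 of 5 tested genes were higher and 2 were lower, while Cd209e rose. Mcemp1, a mast cell-expressed membrane protein gene 83.2 kb from Cd209a, fell from 67.7 ± 3.84 to 26.1 ± 2.28 FPKM (SD, n = 3 per group, limma adjusted p = 0.00011). Fcer2a, the low-affinity IgE receptor CD23 and itself a C-type lectin of B cells, was at 55.8, 27.2 and 18.4 FPKM under PBS and 14.7, 12.2 and 8.40 FPKM under IL-33 (log2 change -1.33, limma adjusted p = 0.0207). Trappc5, Clec4g and Evi5l did not pass. Beside Mgl2 and Clec10a, 3 of 4 tested genes were higher: Rnasek (0.53, SE 0.09), 0610010K14Rik (0.37, SE 0.08) and Asgr2 (0.52, SE 0.15), which encodes a subunit of the asialoglycoprotein receptor, another galactose-binding lectin. Asgr2 was at 0.77 ± 0.17 FPKM under PBS and 1.55 ± 0.41 FPKM under IL-33, well under the lectins beside it, and it reached the expression filter only through the IL-33 libraries. Neither listed neighbour of Mrc1 was tested.

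Among other C-type lectin receptors 29 genes were listed and 22 tested, of which 8 were higher, 6 lower and 8 did not pass (median change 0.11). These shares are near those of all tested genes, 28.0% higher and 25.5% lower. Asgr2, called higher, reached the filter only through the IL-33 libraries, and Mrc2, called lower, only through the PBS libraries. Neither call is support for the counts. The largest rises were those of Clec4b1 (2.17, SE 0.16), Clec7a, the glucan receptor dectin-1 (1.82, SE 0.11), and Clec4a2, an inhibitory receptor gene (1.61, SE 0.16), each smaller than those of Mgl2 and Cd209e and larger than that of Clec10a. Clec4b1 stood at 16.7, 22.7 and 23.9 FPKM under PBS and 119, 86.6 and 89.8 FPKM under IL-33. The lower genes included Clec9a, a receptor of type 1 conventional dendritic cells (-0.60, SE 0.09), and Clec4a4, a marker of a type 2 subset (-0.93, SE 0.17). With equal totals 5 were higher and 10 lower.

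Genes that IL-4 and IL-13 are known to induce through STAT6 were mostly higher. Without the lectins, 20 of the 22 listed genes were tested, of which 13 were higher and 1 lower (median change 0.91, beside 0.01 for all tested genes). Among all tested genes 28.0% were higher and 25.5% lower. Of the 13, Ccl17, Arg1 and Alox15 had a PBS mean under 1 FPKM and reached the filter only through the IL-33 libraries, so that their calls are no support for the count. Cish, at 0.80 FPKM in PBS replicate 2, also needed an IL-33 library to reach it. The 3 with the smallest adjusted p were Ccl17, Retnla and Ccl24, with log2 changes of 4.12 (SE 0.17), 9.19 (SE 0.42) and 3.84 (SE 0.21). The order of the IL-33 libraries was not shared across the list. Retnla, Chil3 and Arg1, like Mgl2, were highest in IL-33 replicate 1 and lowest in IL-33 replicate 3, whereas Ccl22 (44.6, 74.6 and 92.8 FPKM) and Irf4 (35.4, 42.0 and 43.8 FPKM) ran the other way. Chil3 was at 1274, 509 and 172 FPKM and Arg1 at 183.1, 25.6 and 9.88 FPKM in IL-33 libraries 1, 2 and 3. Irf4, a transcription factor gene of type 2 dendritic cells, was called higher as well (0.50, SE 0.12). The 1 lower gene, Fcer2a, lost its call without IL-33 replicate 3.

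The signalling genes upstream of these were split. Of 12 tested genes of IL-33, IL-4 and IL-13 signalling, 4 were higher, 4 lower and 4 did not pass (median change -0.15). With so few genes these counts are near the shares of all tested genes, 28.0% higher and 25.5% lower. The IL-33 receptor gene Il1rl1 (1.61, SE 0.12), the adaptor gene Myd88 (0.57, SE 0.07) and Il4 (1.14, SE 0.24), at 0.43 to 1.24 FPKM under PBS and 1.82 to 3.96 FPKM under IL-33, were higher. Il1rl1 and Il4 had a PBS mean under 1 FPKM, which leaves 2 higher calls that the filter did not favour. The shared cytokine receptor chain gene Il2rg (-0.46, SE 0.06) and Jak1 (-0.44, SE 0.07) were lower. Il4ra (-0.10, SE 0.09) and Stat6 itself (-0.16, SE 0.06, limma adjusted p = 0.0629) did not pass. With equal totals 8 of the 12 were lower.

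For Mgl2 and Clec10a the genes of most similar pattern over the 6 libraries followed the difference between the groups and the order of the libraries (Spearman rho 0.943 to 1.0). For Mgl2 they were Ndufv1 (r = 0.999), Eef1g (r = 0.999) and Slc9a3r2 (r = 0.999), with log2 changes of 0.71, 0.56 and 1.67. For Clec10a they were Gramd4 (r = 0.995), Arl16 (r = 0.995) and Neurl1b (r = 0.995), with changes of 0.40, 0.14 and 0.35. Arl16 did not pass (limma adjusted p = 0.15). For Cd209a, which did not pass, they were Myo19 (r = 0.987), Srr (r = 0.982) and Abcb10 (r = 0.976), none of which passed. A high r says nothing of size here, since Eef1g moved by 0.56 where Mgl2 moved by 4.35.

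Other splenic cell types can be carried along in a CD11c sort, and their markers differed between the groups as well. Their counts stand beside 28.0% higher and 25.5% lower among all tested genes. The monocyte count of 3 of 10 higher is near the first share. Eosinophil markers summed to 216 to 310 FPKM under PBS and 870 to 1238 FPKM under IL-33, with 6 of 8 called higher and 0 lower. Epx, Ear1 and Ear6, 3 of the 6, had a PBS mean under 1 FPKM and reached the filter only through the IL-33 libraries. The eosinophil sum was mostly Ear2, at 174 to 243 FPKM under PBS and 609 to 869 FPKM under IL-33. The receptor genes Ccr3 (log2 change 0.01) and Il5ra (-0.21) did not pass. Monocyte markers summed to 1594 to 2023 FPKM under PBS and 2019 to 3309 FPKM under IL-33, with 3 of 10 tested higher, 1 lower and Vcan under 1 FPKM in every library. Without Chil3, also listed as a STAT6-induced gene, the monocyte sum was 1582 to 2013 FPKM under PBS and 1847 to 2147 FPKM under IL-33, and the groups overlapped (a sum chosen after the values were seen). Neutrophil markers (7 of 8 tested higher, of which Mpo had a PBS mean under 1 FPKM, and Elane under 1 FPKM throughout) and plasma cell markers (4 of 5) were higher too. F13a1 among the monocyte calls (0.9989 FPKM in PBS replicate 3) and Sdc1 among the plasma cell calls (0.75 FPKM there) also needed an IL-33 library to reach the filter. Basophil and mast cell markers summed to 1.24 to 1.80 FPKM under PBS and 14.9 to 27.5 FPKM under IL-33, with Ms4a2 under 1 FPKM in every library. All 4 that were tested reached the filter only through the IL-33 libraries, so their calls are not counted. Marginal zone macrophage markers summed to 182 to 280 FPKM under PBS and 284 to 377 FPKM under IL-33, with 3 of 5 higher.

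Type 2 conventional dendritic cell markers, the subset in which Mgl2 and Cd209a are known, were split, with 3 higher, 3 lower and 2 not passing. They summed to 522 to 624 FPKM under PBS and 522 to 581 FPKM under IL-33. With so few genes these counts are near the shares of all tested genes, 28.0% higher and 25.5% lower. Type 1 markers (2 of 9 higher, 6 lower), plasmacytoid markers (0 higher, 6 of 9 lower) and B cell markers (0 higher, 2 of 7 lower) were mostly lower or did not pass. T cell markers (0 higher, 7 of 7 lower) and natural killer cell markers (0 higher, 7 of 7 lower) were all lower. The type 1 sum was 523 to 566 FPKM under PBS and 572 to 591 FPKM under IL-33. Its 2 higher genes were Batf3 (means 82.4 and 236 FPKM) and Itgae (3.02 and 16.2 FPKM). Of the sinusoidal endothelial markers, another known site of Mrc1, 4 of 9 (Stab1, Clec14a, Tie1 and Emcn) were under 1 FPKM in every library. Pecam1 was higher (means 43.6 FPKM under PBS and 76.0 FPKM under IL-33), and Stab2 (11.9 and 13.9 FPKM) did not pass. Lyve1, not tested, was at 0 to 0.0852 FPKM under PBS and 0.4505 to 4.21 FPKM under IL-33. Cdh5 and Kdr, called lower, reached the filter only through the PBS libraries. The list, mostly Pecam1, summed to 55.3 to 64.5 FPKM under PBS and 89.4 to 99.6 FPKM under IL-33. The part of any of these cell types in the rise of Mgl2, Cd209e and Clec10a was not tested.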

How the data were processed

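RNA was measured in 6 libraries, 3 labelled IL-33 and 3 labelled PBS, grouped and numbered by their titles. The authors deposited 1 FPKM table per library. Cuffnorm 2.2.1, TopHat2 2.0.13 with Bowtie2 2.2.3, and SAMtools 0.1.19 are listed in the submitters' processing notes, as is mm10, and per the labels' protocols the kit was stranded. For annotation, library scaling and strand setting, the method is not given in the sources used here. FPKM hold no counts, so depth is unknown and the number of libraries limits the precision. An exact 0 may be a failed estimate.

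Genes of at least 1 FPKM in at least 3 libraries (11518) were fitted as log2(FPKM + 1) with limma 3.58.1 (R 4.3.3), with treatment as the only term and a mean-variance trend. P-values were two-sided, with Benjamini-Hochberg adjustment across every tested gene. The fit was tested on simulated data. Pair ratios had an exact permutation test. Positions, coding sequences and 50-base runs came from GENCODE M21 (GRCm38, that is mm10), and promoters from RefSeq (GRCm38.p6). Python 3.11.15, pandas 2.3.3, scipy 1.17.1, Biopython 1.88 and matplotlib 3.10.9 were used.

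Named genes were the 10 lectins, up to 3 called genes of smallest adjusted p in each pathway list, genes within 100 kb, and the 3 genes most like each of Mgl2, Clec10a, Cd209a and Mrc1. The text also names Clec9a, Clec4a4, Mrc2, Chil3, Arg1, Alox15, Cish, Ccl22, Irf4, Il4, Jak1, Il4ra and Stat6, and single markers of cell types. These were chosen after their values were seen. The genes, lists and pairs were chosen with earlier results of these data known. Alternatives were other pseudocounts (0.1 and 0.5), no filter or one of 5 FPKM, 3 scalings, 2 variance settings, a replicate block and leaving out each library.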

Additional observations from a re-analysis of the deposited data

How the results depend on the processing

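The calls of Mgl2 (log2 change 4.05 to 4.72), Cd209e (2.44 to 2.93) and Clec10a (0.69 to 1.25) held in all 16 alternatives run for each. The count of lectin genes called lower was 0 and became 1 without a filter (Cd209f), 2 with equal totals (Cd209a and Cd209c), and 1 under cyclic loess or quantile normalization (Cd209a both times). Signs turned for Cd209d with equal totals (-0.0152), and for Mrc1 without IL-33 replicate 2 (0.0547) and without PBS replicate 3 (0.10), in a range of -0.327 to 0.10 when each library was left out. The Mgl2/Clec10a log2 difference was 3.66 with a pseudocount of 0.1. For Cd209a/Cd209e it was -3.055 with that pseudocount, -3.23 under cyclic loess and -3.17 under quantile normalization, and for Cd209a/Cd209b it was -0.92 and -0.84 under these scalings. Beyond the construction of each alternative, the cause was not tested.

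Of all tested genes 3230 were higher and 2939 lower as deposited, and 1280 higher and 5840 lower with equal totals. Counts in lists moved by over 1.5 times as follows. Other C-type lectins were 8 higher and 6 lower, but 5 and 10 with equal totals, and 4 higher without IL-33 replicate 1. STAT6-induced genes had 1 lower, but 3 under each of the 3 scalings, and 0 with robust moderation or without IL-33 replicate 3. Signalling genes had 4 higher and 4 lower, but 2 higher with a filter of 5 FPKM and 8 lower with equal totals. Genes beside the lectins had 3 higher and 2 lower, but 1 and 4 with equal totals, 1 higher with cyclic loess, and 1 lower with robust moderation or without IL-33 replicate 3.

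With the replicate number as a block 3 lectin genes were higher and 0 lower, as without it, and 5258 genes were called beside 6169. Same-numbered libraries deviated together at r of 0.075, -0.054 and 0.089, beside -0.113 to 0.056 for other numbers. Of 6 libraries 4 correlated best with their own number, which does not settle whether the numbers mark pairs. The labels name no pairs, so none were used. With the block the SE was 0.18 for Mgl2, 0.10 for Clec10a and 0.11 for Cd209e, beside 0.32, 0.22 and 0.20 without it. For Cd209b the SE was larger (0.22 beside 0.20), and for Cd209d the limma adjusted p was 0.0592. The paired exact p of the Mgl2/Clec10a difference of 3.34 was 0.25, the smallest that 3 pairs allow.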
